A study of Homo sapiens with 24 samples.

Results

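The 9 genes described here encode a ligand and receptors that act in the survival, activation or death of B cells and plasma cells: TNFRSF17 (BCMA), TNFRSF13B (TACI), TNFRSF13C (BAFF receptor), their ligand TNFSF13B (BAFF), the costimulatory receptors CD40, CD27 and TNFRSF8 (CD30), the death receptor FAS, and SDC1 (syndecan-1, CD138), a surface proteoglycan of plasma cells. They were chosen by name, with earlier results of these data known. Matching through the annotation of the array's probe sets gave 1 probe set for each of the 9, of 18417 genes with a probe set of their own and 21214 probe sets tested. TNFRSF17 rose 1.59-fold in cells cultured with calcitriol compared with untreated cells, and 1.61-fold in cells given calcitriol and estrogen compared with estrogen alone. The rise was present on every calcitriol array of both cell lines. CD27, SDC1 and TNFRSF8 were higher with calcitriol by 0.13 to 0.28 on the log2 scale without passing the test in these comparisons, and the other 5 genes gave estimates between -0.16 and 0.06. CD27, CD40 and TNFRSF17 were lower in one line than in the other, and none of the 9 genes differed with estrogen at an adjusted p under 0.05.

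The data came from 24 expression arrays of GM10855 and GM10861, B-lymphoblastoid lines of the HapMap collection, that is, B cells immortalised with Epstein-Barr virus. Each line was measured untreated at 0 h, and after 36 h with calcitriol (the active hormone made from vitamin D), estrogen or both, on 3 arrays per line and agent. Each line derives from 1 donor, so a difference between the lines describes these 2 cultures. The labels give no dose, no vehicle, no name of the estrogen compound and no statement on whether a group's 3 arrays hold separate cultures. Every p-value below is therefore relative to a spread between arrays that may be only technical. Untreated cells were measured only at 0 h. A difference from untreated cells therefore cannot be told apart from the effect of 36 h in culture, whereas the comparison of both agents with estrogen alone was made at the same time point and uses none of the same arrays as calcitriol against untreated.

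BAFF and the related ligand APRIL are members of the tumour necrosis factor family that sustain B lineage cells. The BAFF receptor serves mainly naive and memory B cells, TACI restrains B cell numbers and supports class switching, and BCMA, the APRIL receptor of plasmablasts and plasma cells, maintains long-lived plasma cells in the bone marrow through MCL1. CD40 and CD27 receive help from T cells through CD40LG and CD70, CD30 is an activation receptor, and FAS triggers apoptosis through FADD and CASP8. In lines of this kind the viral protein LMP1 signals like an active CD40. The vitamin D receptor binds DNA as a dimer with a retinoid X receptor, most often at repeated hexamers separated by 3 bases.

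All 9 probe sets were above the median of all probe sets on every array. Values are log2 signals after robust multi-array averaging (RMA), on which 1 unit is a doubling and differences for dim genes are compressed. A signal of one probe set cannot be set against that of another, so levels are compared within a gene. Correlations over all probe sets were 0.990 to 0.995 between arrays of a group and 0.972 to 0.979 between lines, and no 2 arrays were identical. Of 8 measured B cell markers all were above the array median on every array, as were the 10 plasma cell markers, of which 3 (TNFRSF17, CD27 and SDC1) are among the 9 genes. Below the median on every array were 6 of 7 T cell markers, 5 of 6 NK cell markers, 6 of 7 monocyte markers, 4 of 4 measured erythroid markers and 3 of 6 fibroblast markers, and none of these 5 lists had a member that changed with calcitriol by limma's test. In bulk RNA of this kind, fewer cells of a type and less RNA per cell cannot be told apart.

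RefSeq windows of the 250 bases before the gene's start were matched for 6 of the 9 genes (GRCh38.p14); TNFRSF17, TNFRSF13C and CD40 had none. The hexamer AGGTCA, which the vitamin D receptor dimer can bind as a repeat, was searched on both strands together with its variants GGGTCA, then AGTTCA, and lastly GGTTCA, and 34.0% of 27305 such windows hold at least 1. Among the 6 genes, only the window of TNFSF13B holds one, AGGTCA on the minus strand, 243 bases before the start. The windows of TNFRSF13B, CD27, TNFRSF8, FAS and SDC1 hold none. Whether a match goes with a response was not tested, and TNFRSF17 has no window here. The windows of TNFSF13B, CD27 and SDC1 are shown, with capitals marking the match. They lie at chr13:108269379-108269628 on the plus strand (TNFSF13B), chr12:6443642-6443891 on the plus strand (CD27) and chr2:20225476-20225725 on the minus strand (SDC1).
TNFSF13B: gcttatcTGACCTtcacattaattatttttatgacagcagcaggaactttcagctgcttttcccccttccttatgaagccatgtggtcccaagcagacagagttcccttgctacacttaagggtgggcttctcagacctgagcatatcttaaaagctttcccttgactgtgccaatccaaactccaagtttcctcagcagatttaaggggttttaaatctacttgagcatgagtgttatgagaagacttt
CD27: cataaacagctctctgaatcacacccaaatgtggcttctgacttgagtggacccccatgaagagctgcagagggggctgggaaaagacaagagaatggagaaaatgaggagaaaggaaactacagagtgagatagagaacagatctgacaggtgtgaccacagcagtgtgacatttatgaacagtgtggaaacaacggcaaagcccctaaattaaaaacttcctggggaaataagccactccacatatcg
SDC1: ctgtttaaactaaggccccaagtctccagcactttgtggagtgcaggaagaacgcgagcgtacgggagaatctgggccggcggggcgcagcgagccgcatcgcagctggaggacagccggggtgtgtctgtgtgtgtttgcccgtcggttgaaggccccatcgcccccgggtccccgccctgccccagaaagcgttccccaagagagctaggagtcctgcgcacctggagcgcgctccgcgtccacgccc
No pair of these hexamers repeated in the same direction with 3 bases between them was found in the 6 windows (0.0659% of all windows hold one). A window without a match says only that these letters are not in it.

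TNFSF13B, the ligand, was measured at 6.05, 6.02 and 5.91 in untreated GM10855 and at 6.11, 6.05 and 6.05 with calcitriol. In GM10861 the untreated arrays gave 6.25, 5.85 and 5.69, the widest spread of any group for this gene (SD 0.287), and the calcitriol arrays 5.87, 5.98 and 5.88. The groups overlapped in both lines, and the averaged difference was 0.03 (95% interval -0.118 to 0.172, limma adjusted p = 0.992). With both agents the arrays gave 5.99, 5.81 and 5.92 in GM10855, all below the 6.08, 6.08 and 6.09 with estrogen. In GM10861 they gave 6.02, 5.86 and 5.80 against 6.07, 5.99 and 6.03, which overlap. The difference of -0.16 did not pass the test (95% interval -0.302 to -0.0125, limma adjusted p = 0.570). It was negative on 6 of 6 arrays. In such counts, here and below, each array is set against the mean of its line's control arrays.

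TNFRSF17 was measured at 9.59, 9.51 and 9.61 in untreated GM10855 and at 10.23, 10.21 and 10.25 with calcitriol. In GM10861 it was 9.05, 9.08 and 9.05 untreated and 9.71, 9.75 and 9.74 with calcitriol. Every calcitriol array lay above every untreated array of its line. The rise averaged 0.67 ± 0.0507 (SE) on the log2 scale, or 1.59-fold (95% interval 1.48 to 1.71, limma adjusted p = 8.18e-09), and was higher on 6 of 6 arrays. It stood at rank 16 among the rises of all probe sets tested and at rank 11 by p. Of the 9 genes it was the only one that passed the threshold of an adjusted p under 0.05 in this comparison, in which 0.679% of all probe sets passed (0.618% higher). The median change of the 9 genes was 0.06, beside 0.00 over all probe sets.

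The same receptor was measured at 9.56, 9.38 and 9.70 in GM10855 with estrogen and at 10.28, 10.34 and 10.27 with both agents. In GM10861 the values were 9.07, 9.02 and 9.04 with estrogen and 9.61, 9.64 and 9.73 with both. Again no array with calcitriol overlapped one without it in the same line. The rise was 0.68 (1.61-fold, 95% interval 1.49 to 1.73, limma adjusted p = 9.06e-09), and TNFRSF17 was the only one of the 9 genes to pass, against 0.754% of all probe sets (0.679% higher). The median change of the 9 genes was 0.02, beside -0.01 over all probe sets. By line, the rise was 0.66 and 0.75 in GM10855 (limma adjusted p = 5.86e-06 against untreated and 1.14e-06 against estrogen), where 0.509% and 0.632% of all probe sets passed. In GM10861 it was 0.67 and 0.62 (limma adjusted p = 7.77e-06 and 3.19e-05), where 0.104% and 0.127% passed.

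The response of TNFRSF17 to calcitriol differed between lines by -0.06 (GM10861 minus GM10855, 95% interval -0.210 to 0.0870, limma adjusted p = 0.856). The interaction of the agents, the rise over estrogen minus the rise over untreated cells, was 0.02 (95% interval -0.132 to 0.165, limma adjusted p = 0.993). Only the rise over untreated cells includes 36 h in culture. The interval therefore does not bound how far estrogen alone altered the response to calcitriol. Against estrogen alone, calcitriol alone gave 0.69 (limma adjusted p = 6.14e-09), and both agents against untreated gave 0.66 (limma adjusted p = 1.15e-08). These comparisons share arrays with those above. TNFRSF17 was again the only one of the 9 to pass in each, where 0.57% and 1.15% of all probe sets passed.

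**Figure D1:**
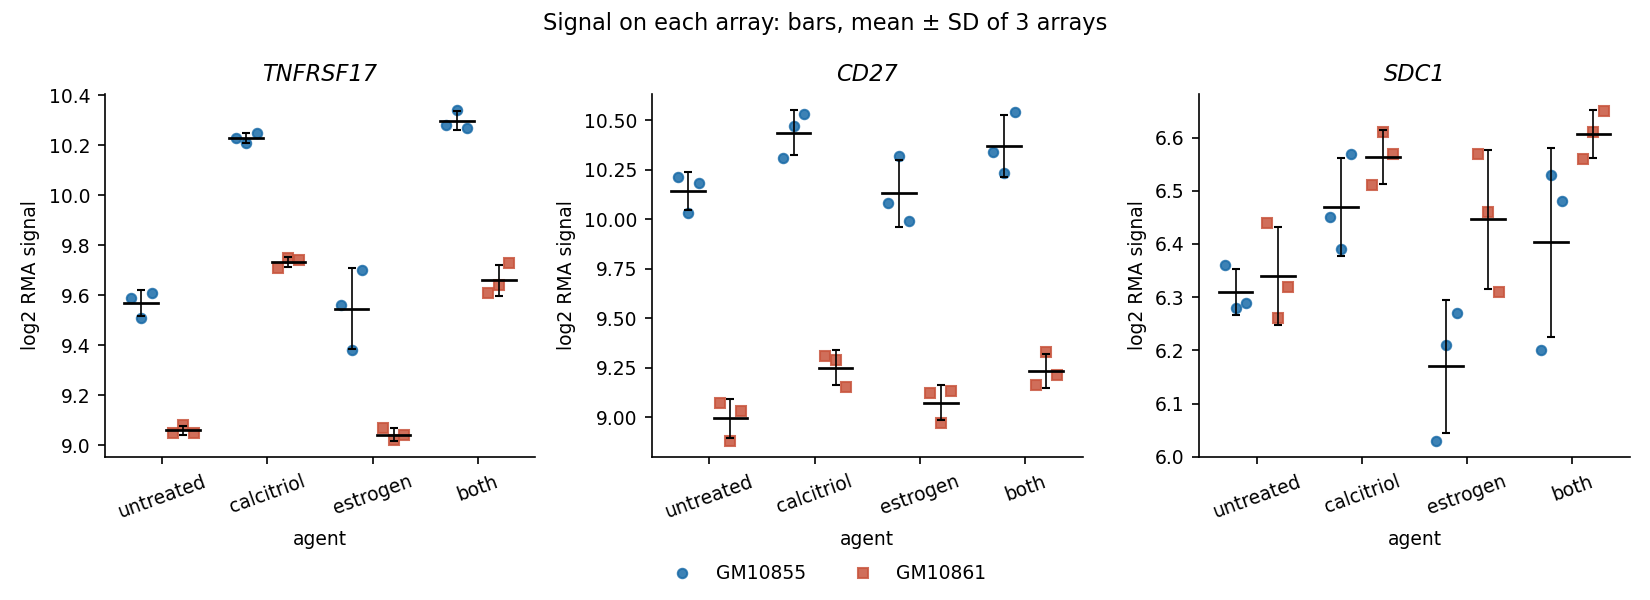
log2 RMA signal of TNFRSF17, CD27 and SDC1 on each of 24 arrays, by agent (horizontal axis; "both" is calcitriol and estrogen) and line (blue circles GM10855, red squares GM10861), with horizontal bars at the group mean and vertical bars of 1 SD over 3 arrays; the vertical axes do not start at 0 and differ between panels. For TNFRSF17 the calcitriol arrays of GM10855 sit at 10.21 to 10.25 against 9.51 to 9.61 untreated, and those of GM10861 at 9.71 to 9.75 against 9.05 to 9.08.

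TNFRSF13B, which shares both ligands with TNFRSF17, was measured at 9.21, 8.74 and 8.85 in untreated GM10855 and at 8.95, 8.81 and 9.0 with calcitriol. In GM10861 all 12 arrays lay between 9.09 and 9.28, with overlap between every pair of agents. The averaged difference between calcitriol and untreated was 0.00 (95% interval -0.138 to 0.139, limma adjusted p = 0.999). With both agents GM10855 gave 8.69, 8.63 and 8.77, its lowest group, below every one of the estrogen arrays at 8.97, 9.10 and 8.91. That difference was -0.30 within GM10855 (95% interval -0.494 to -0.102, limma adjusted p = 0.204) and -0.01 within GM10861. The lines differed in it by 0.29 (limma adjusted p = 0.720), and the average of -0.15 did not pass (limma adjusted p = 0.556).

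TNFRSF13C, the receptor for BAFF alone, ranged from 6.16 to 6.65 over the 12 arrays of GM10855 and from 6.45 to 6.74 over those of GM10861. Calcitriol arrays overlapped their controls in both lines, with differences of 0.04 (95% interval -0.0965 to 0.177) and 0.02 (95% interval -0.120 to 0.153) against untreated and estrogen. The 3 receptors of BAFF and APRIL thus gave 0.67, 0.00 and 0.04 for TNFRSF17, TNFRSF13B and TNFRSF13C in calcitriol against untreated. Their 95% intervals reach up to 0.139 for TNFRSF13B and 0.177 for TNFRSF13C, both under the lower bound of 0.561 for TNFRSF17. Whether the receptors differ from one another in the response was not tested.

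CD27, a receptor of memory B cells and plasmablasts, was measured at 10.21, 10.03 and 10.18 in untreated GM10855 and at 10.31, 10.47 and 10.53 with calcitriol. In GM10861 it was 9.07, 8.88 and 9.03 untreated and 9.31, 9.29 and 9.15 with calcitriol. The groups did not overlap in either line. The difference was 0.28 ± 0.0692 (SE), or 1.21-fold (95% interval 1.10 to 1.34), on 6 of 6 arrays, at limma adjusted p = 0.0727. With both agents the values were 10.34, 10.23 and 10.54 in GM10855 and 9.16, 9.33 and 9.21 in GM10861, compared with estrogen values of 10.08, 10.32 and 9.99 and of 9.12, 8.97 and 9.13. Those groups overlapped in GM10855 and not in GM10861, and the difference was 0.20 (95% interval 0.0564 to 0.343, limma adjusted p = 0.355). CD27 passed against untreated when probe sets with a mean below 5 were left out (limma adjusted p = 0.0388), with a trended and robust variance (0.0118) and with array weights (0.0270), at an estimate of 0.28 in each.

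CD40, the receptor for T cell help, was measured at 8.02, 7.72 and 7.71 in untreated GM10855 and at 7.78, 7.90 and 7.82 with calcitriol. In GM10861 the values were 7.10, 7.24 and 7.19 untreated and 7.34, 7.29 and 7.18 with calcitriol. The groups overlapped in both lines, and the differences were 0.06 against untreated (95% interval -0.0675 to 0.181) and 0.02 against estrogen (95% interval -0.103 to 0.145).

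TNFRSF8, the CD30 activation receptor, was measured at 7.48, 7.18 and 7.26 in untreated GM10855 and at 7.56, 7.47 and 7.50 with calcitriol, which overlap. In GM10861 it was 7.49, 7.55 and 7.47 untreated and 7.59, 7.63 and 7.63 with calcitriol, which do not. The difference of 0.16 was positive on 6 of 6 arrays (95% interval 0.0432 to 0.274, limma adjusted p = 0.434). With both agents the arrays read 7.46, 7.31 and 7.48 in GM10855 and 7.81, 7.60 and 7.77 in GM10861, against 7.38, 7.31 and 7.27 and 7.57, 7.55 and 7.57 with estrogen. That difference was 0.13 (95% interval 0.0124 to 0.243, limma adjusted p = 0.556), on 5 of 6 arrays.

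FAS, the death receptor, varied least. Its 24 values lay between 8.96 and 9.22, and the 8 group means between 9.06 and 9.11. The difference was 0.01 for calcitriol against untreated (95% interval -0.109 to 0.122) and 0.01 against estrogen (95% interval -0.102 to 0.129), so a change larger than 1.09-fold in either direction lies outside the intervals.

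SDC1, which binds APRIL through its heparan sulfate chains and marks plasma cells, was measured at 6.36, 6.28 and 6.29 in untreated GM10855 and at 6.45, 6.39 and 6.57 with calcitriol. In GM10861 it was 6.44, 6.26 and 6.32 untreated and 6.51, 6.61 and 6.57 with calcitriol. The groups did not overlap, and the difference was 0.19 (95% interval 0.0591 to 0.323, limma adjusted p = 0.353). With both agents the values were 6.20, 6.53 and 6.48 in GM10855 and 6.56, 6.61 and 6.65 in GM10861, and with estrogen 6.03, 6.21 and 6.27 and 6.57, 6.46 and 6.31. These overlapped in both lines, at a difference of 0.19 (95% interval 0.0607 to 0.324, limma adjusted p = 0.306). On 6 of 6 arrays the signal lay above the estrogen mean of the line.

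The number of the 9 genes with an unadjusted p under 0.05 was 4 in calcitriol against untreated, where 6.55% of all probe sets reached it, and 6 in both agents against estrogen, where 7.94% did. In the latter the 6 were TNFRSF17, CD27, TNFRSF8 and SDC1, which were higher, and TNFSF13B and TNFRSF13B, which were lower. The 9 genes were chosen with earlier results of these data known, so neither count is an independent test of the set. A comparison of all 12 calcitriol arrays with all 12 arrays without it, added after the data had been examined, gave a smaller error. The arrays without calcitriol include the untreated ones at 0 h, so agent and 36 h in culture are partly mixed in this comparison. In it 3 of the 9 genes passed, all higher, against 1.41% of all probe sets (1.17% higher). TNFRSF17 rose by 0.67 (1.60-fold, 95% interval 1.52 to 1.68, limma adjusted p = 6.46e-12), CD27 by 0.24 (1.18-fold, adjusted p = 0.0073) and SDC1 by 0.19 (1.14-fold, adjusted p = 0.0254). Neither CD27 nor SDC1 passed in both agents against estrogen, made at the same time point (limma adjusted p = 0.355 and 0.306).

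The calls of TNFRSF17 and CD27 held without any 1 of the 24 arrays, at an adjusted p of at most 0.0189 for CD27. The call of SDC1 was lost without any 1 of 9 arrays, at an adjusted p of up to 0.0614. These were calcitriol array 3, estrogen array 1 and arrays 2 and 3 with both agents in GM10855, and untreated arrays 2 and 3, calcitriol array 2, estrogen array 3 and array 3 with both agents in GM10861. TNFRSF8 gave 0.14 (95% interval 0.0615 to 0.225, limma adjusted p = 0.0842) and passed without untreated array 1 or array 2 with both agents in GM10855, without array 2 with both agents in GM10861, and under 4 of the 8 alternatives that kept all the arrays.

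**Figure D2:**
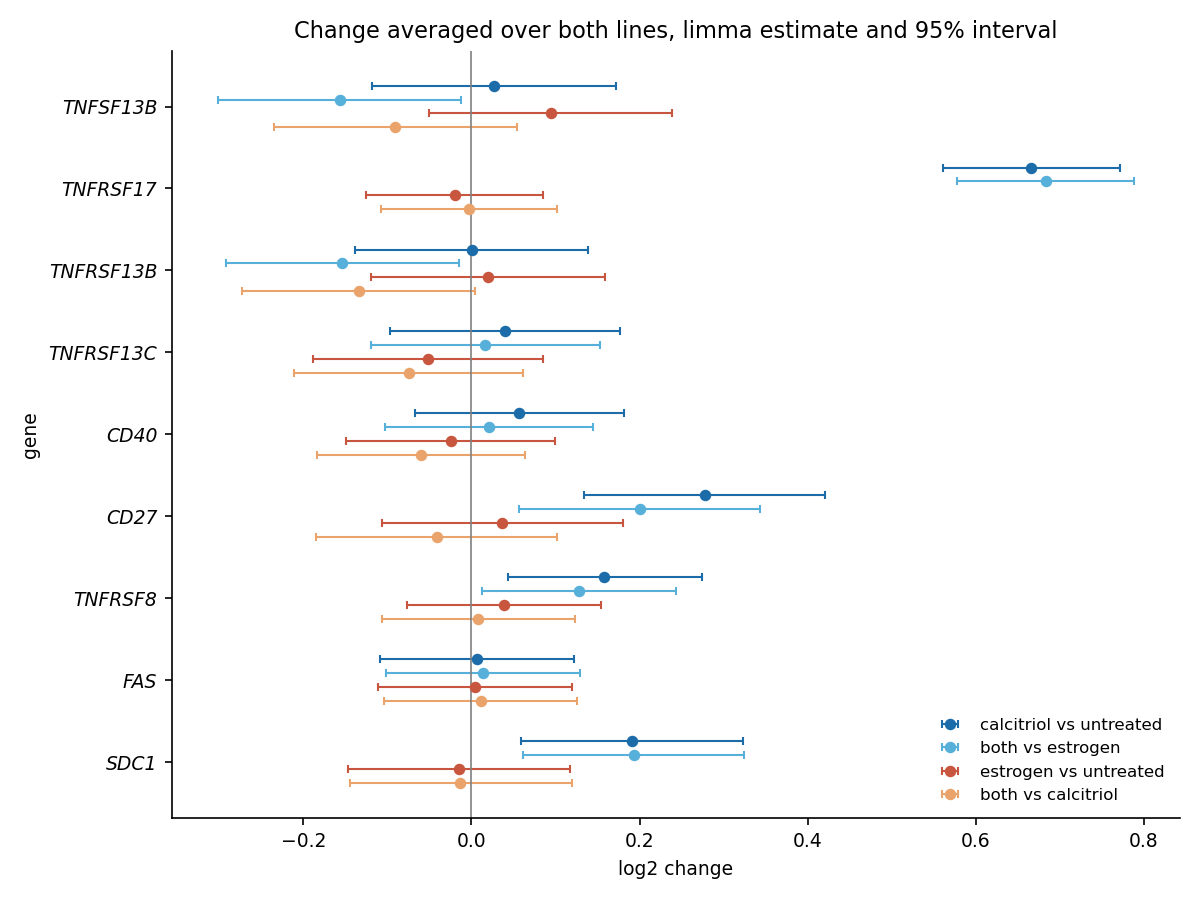
Change of each of the 9 genes averaged over both lines (horizontal axis, log2; points are limma estimates and bars 95% intervals) in 4 comparisons, named in the key. TNFRSF17 stands at 0.67 in calcitriol against untreated and 0.68 in both agents against estrogen (both blue). Its estrogen estimates (red and orange) are -0.02 and -0.00. The calcitriol estimates of CD27 are 0.28 and 0.20.

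Estrogen alone against untreated cells gave no call among the 9 genes, none at an unadjusted p under 0.05, and none by limma among all probe sets (0.0%), of which 5.17% had an unadjusted p under 0.05. Among all probe sets 3 passed when those with a mean below 5 were left out, and 6 passed with a trended and robust variance. The estimates of the 9 genes ran from -0.05 for TNFRSF13C to 0.09 for TNFSF13B. For TNFRSF17 the estimate was -0.02 (95% interval -0.125 to 0.0848), that is, between 0.917-fold and 1.06-fold. Estrogen added to calcitriol likewise gave no call among the 9 (none at an unadjusted p under 0.05) or among all probe sets (0.0%, with 8.35% at an unadjusted p under 0.05). With probe sets of a mean below 5 left out, 2 of all probe sets passed in this comparison, and 1 passed with array weights. There TNFRSF17 gave -0.00 (95% interval -0.108 to 0.102), and the widest estimate of the 9 genes was the -0.13 of TNFRSF13B (95% interval -0.273 to 0.00439, limma adjusted p = 0.609). No interaction of the agents passed for the 9 genes (0 at an unadjusted p under 0.05) or for any probe set (0.0%, with 4.41% at an unadjusted p under 0.05). The interaction estimates lay between -0.18 for TNFSF13B and 0.02 for TNFRSF17. They include the untreated arrays at 0 h, so estrogen and 36 h in culture cannot be told apart in them.

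**Figure D3:**
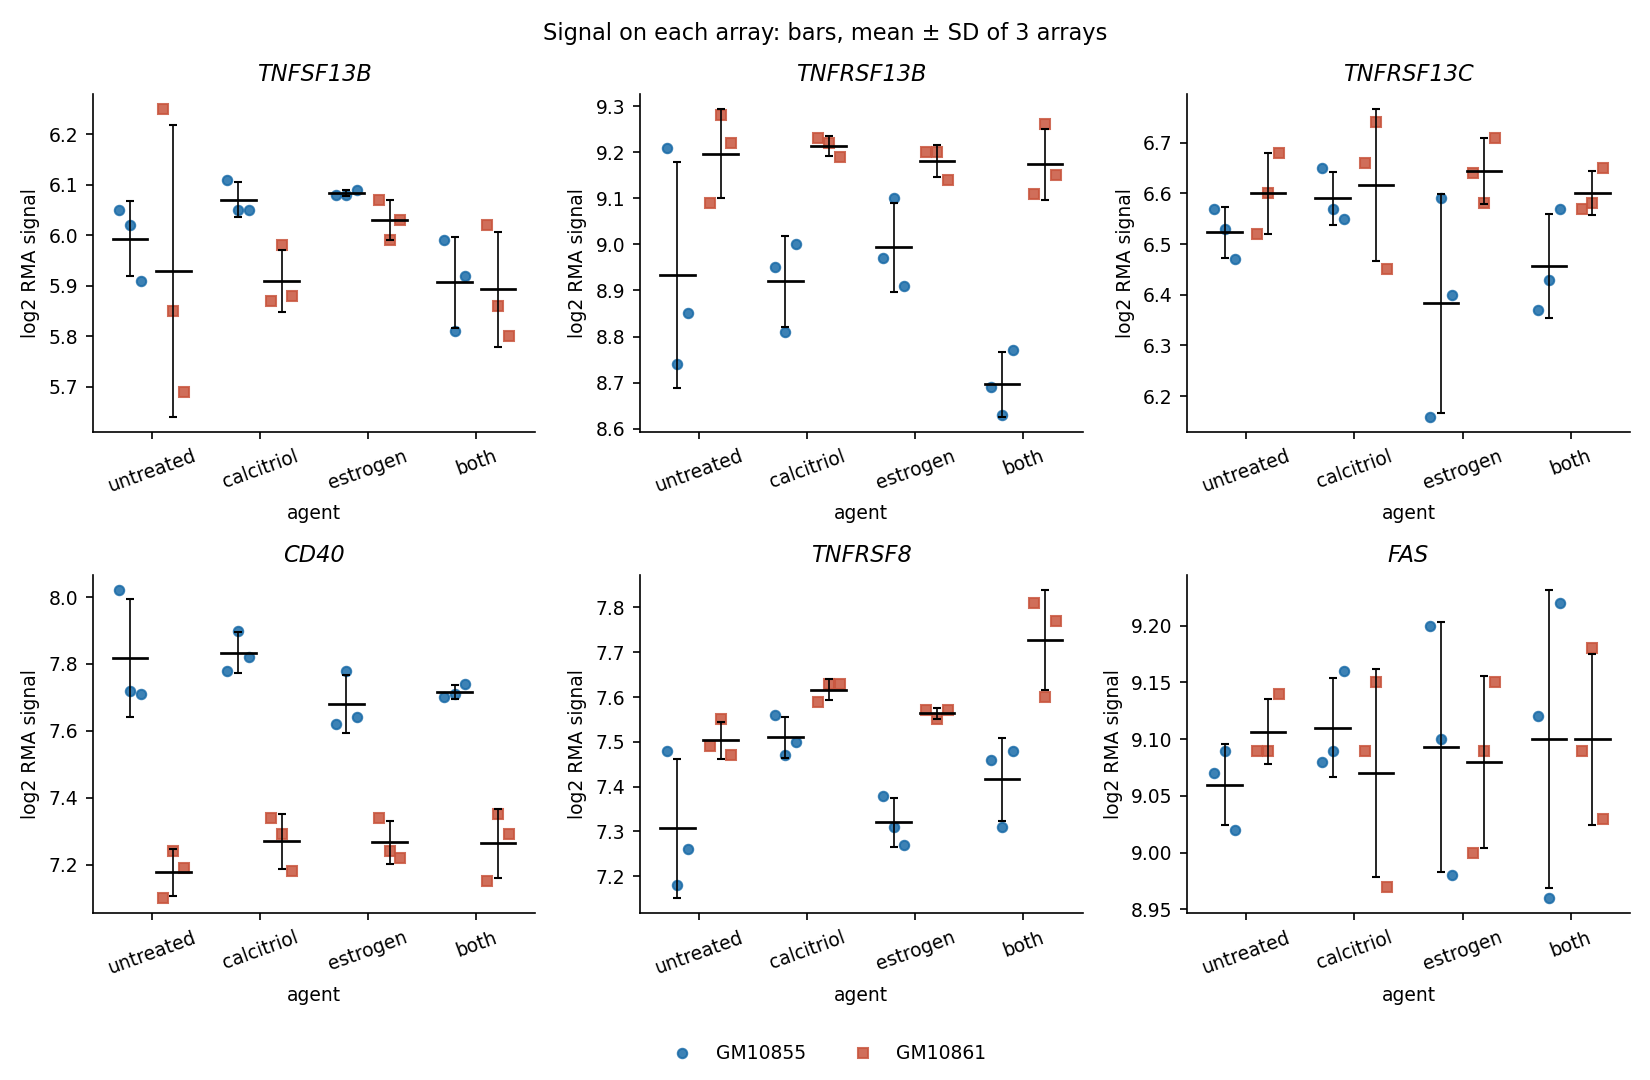
log2 RMA signal of TNFSF13B, TNFRSF13B, TNFRSF13C, CD40, TNFRSF8 and FAS on each of 24 arrays, by agent ("both" is calcitriol and estrogen) and line (blue circles GM10855, red squares GM10861), with the group mean and bars of 1 SD over 3 arrays; the vertical axes do not start at 0 and differ between panels. The lines stand apart for CD40, at 7.62 to 8.02 in GM10855 and 7.10 to 7.35 in GM10861, and overlap throughout for FAS.

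Several of these genes differed between the lines. In untreated cells 4 of the 9 passed, 1 higher and 3 lower in GM10861, against 24.3% of all probe sets (16.2% higher and 8.15% lower). Of all calls in this comparison 66.5% were higher in GM10861, 77.6% after each array was centred on its median, and 61.2% after cyclic loess. CD27 was the farthest apart. Its mean was 10.14 ± 0.0954 (SD, n = 3) in untreated GM10855 and 8.99 ± 0.103 in GM10861, a difference of -1.14 or 0.452-fold (95% interval 0.393 to 0.520, limma adjusted p = 3.54e-09), and the lowest of 12 values in GM10855 (9.99) lay above the highest of 12 in GM10861 (9.33). CD40 was lower by -0.64 (0.640-fold, limma adjusted p = 3.12e-06), and its 12 values in each line did not overlap either. TNFRSF17 was lower by -0.51 (0.702-fold, limma adjusted p = 7.84e-06). The mean of TNFRSF17 in GM10861 with calcitriol, 9.73 ± 0.021, lay above that in untreated GM10855, 9.57 ± 0.0517, a comparison across both line and agent that was not tested.

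These 3 differences had the same sign and passed under each agent. With calcitriol 4 of the 9 genes passed, and 5 each with estrogen and with both agents, against 19.0%, 19.3% and 19.8% of all probe sets. For CD27 they were -1.18 with calcitriol, -1.06 with estrogen and -1.14 with both. The differences were -0.57, -0.41 and -0.45 for CD40, and -0.50, -0.50 and -0.64 for TNFRSF17. Beside them, 6 of the 7 plasma cell markers that are not among the 9 genes were lower in untreated GM10861 (median -0.89). In that comparison 24.3% of all probe sets passed (16.2% higher and 8.15% lower). The 6 were JCHAIN by -1.10, CD38 by -1.08, PRDM1 by -0.94, SLAMF7 by -0.89, XBP1 by -0.78 and MZB1 by -0.60. IRF4 gave 0.14 (limma adjusted p = 0.158). Of the 8 measured B cell markers, CD22, MS4A1 and PAX5 were higher by 1.76, 0.50 and 0.28, and CR2 was lower by -0.61; the call of PAX5 was lost under cyclic loess normalisation (0.16, limma adjusted p = 0.150). The part of these markers in the differences of CD27, CD40 and TNFRSF17 was not tested. The mean of the 10 plasma cell markers lay between 8.97 and 9.91 over the 8 groups.

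TNFRSF13B was higher in untreated GM10861 by 0.26 (1.20-fold, limma adjusted p = 0.0470), although the groups overlapped. This call was lost when all probe sets were tested (adjusted p = 0.0697), under cyclic loess (0.13, adjusted p = 0.337), with only the arrays compared (adjusted p = 0.169), without untreated array 2 or 3 of GM10855 (0.16 and 0.22) and without untreated array 2 or 3 of GM10861 (0.22 and 0.25). With both agents the lines differed by 0.48 (limma adjusted p = 5.74e-04), with calcitriol by 0.29 (adjusted p = 0.0306) and with estrogen by 0.19 (adjusted p = 0.198). The call with calcitriol was lost without calcitriol array 1 or 2 of GM10855 or any 1 calcitriol array of GM10861, at an adjusted p of up to 0.147, and under cyclic loess (adjusted p = 0.0716).

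TNFRSF8 was higher in GM10861 by 0.31 with both agents (limma adjusted p = 0.00626) and by 0.24 with estrogen (adjusted p = 0.0307), and gave 0.20 untreated (adjusted p = 0.0710) and 0.11 with calcitriol (adjusted p = 0.392). With estrogen the call was lost without array 2 or 3 of GM10855 or any 1 array of GM10861, at an adjusted p of up to 0.106, and under cyclic loess (0.17, adjusted p = 0.110). With only the arrays compared, TNFRSF8 lost its calls with estrogen (adjusted p = 0.0780) and with both agents (adjusted p = 0.0527). In untreated cells it passed without untreated array 1 of GM10855 (0.29, adjusted p = 0.00935). SDC1 was higher in GM10861 with estrogen by 0.28 (limma adjusted p = 0.0314), a call lost without estrogen array 1 of GM10855 (0.21) and without estrogen array 1 or 2 of GM10861 (0.22 and 0.27). The estrogen response of SDC1 differed between the lines by 0.25 (limma adjusted p = 0.799), so the lines were not shown to differ in it.

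For TNFSF13B, TNFRSF13C and FAS no line difference passed under any agent. TNFRSF13C came nearest, at 0.26 with estrogen (limma adjusted p = 0.0556), and it passed without estrogen array 2 of GM10855 (0.36, adjusted p = 0.00926). None of the 9 genes differed between the lines in the response to calcitriol, where 0.104% of all probe sets passed. None of the 9 had an unadjusted p under 0.05 there, beside 8.98% of all probe sets, and the largest estimate was the 0.16 of TNFRSF13B (95% interval -0.0356 to 0.357, limma adjusted p = 0.655).

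**Figure D4:**
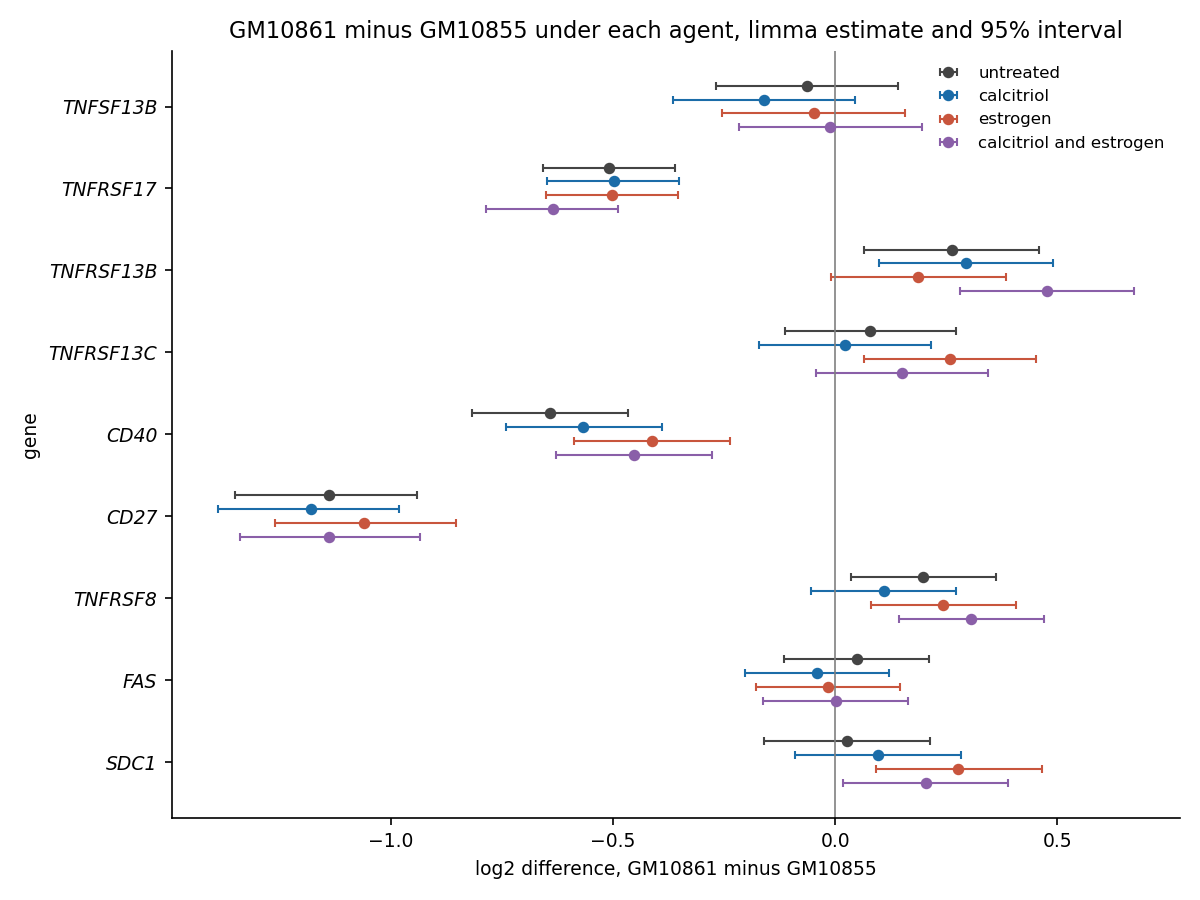
Difference between the lines, GM10861 minus GM10855, for each of the 9 genes under each of 4 agents (horizontal axis, log2; points are limma estimates and bars 95% intervals). CD27, CD40 and TNFRSF17 lie below 0 under all 4 agents, with CD27 between -1.18 and -1.06, and FAS lies between -0.04 and 0.05.

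The partners of these receptors were followed in 7 lists with 80 genes, of which 67 were measured by a probe set of their own. The others, TNFSF13 (APRIL), TNFSF12 and CD40LG among them, were not analysed here. None of the 67 passed in calcitriol against untreated, where 0.679% of all probe sets passed. At that share an absence of calls in lists this short says little about them. Of the ligands 3 were measured; CD70, the ligand of CD27, gave -0.01 and TNFSF8, the ligand of CD30, -0.11 (median of the list -0.03). Of the other tumour necrosis factor receptors 0 of 19 passed (median 0.01), with TNFRSF9 (4-1BB) at 0.20 (limma adjusted p = 0.392). Of the adaptors and NF-kB genes 0 of 13 passed (median 0.02), with NFKB2, the p100 precursor processed downstream of the BAFF receptor, at 0.24 (adjusted p = 0.162). The processing and shedding genes, which include the gamma-secretase subunits that cleave BCMA, had 0 of 8 (median 0.06). ADAM17, a sheddase, gave 0.09, and FURIN, which processes BAFF, 0.09.

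The Fas pathway had 0 of 7 genes past the test (median 0.03), with CFLAR, the c-FLIP inhibitor of CASP8, at 0.23 (limma adjusted p = 0.0840) and CASP8 at -0.02. The survival proteins had 0 of 9 (median 0.05), with BCL2L1 at 0.23 (adjusted p = 0.157) and MCL1 at 0.14 (adjusted p = 0.468). The syndecan and heparan sulfate genes had 0 of 8 (median 0.02), with EXT2, which builds the heparan sulfate chain, at 0.15 (adjusted p = 0.605). In both agents against estrogen, where 0.754% of all probe sets passed, the only call in the 7 lists was that of MCL1, 0.21 (limma adjusted p = 0.0498). It was lost without any 1 of 11 of the 12 arrays compared, at an adjusted p of up to 0.146. The exception was estrogen array 1 of GM10855. CFLAR gave 0.23 there (adjusted p = 0.0923) and BCL2L1 0.21 (adjusted p = 0.229). With both agents against untreated, where 1.15% of all probe sets passed, CFLAR rose by 0.30 (limma adjusted p = 0.00713), TNFRSF9 by 0.29 (adjusted p = 0.0410) and BCL2L1 by 0.27 (adjusted p = 0.0347). The last 2 calls were each lost without any 1 of 9 of the 12 arrays, at an adjusted p of up to 0.131 for TNFRSF9 and 0.129 for BCL2L1. TNFRSF9 kept its call only without untreated array 1 of either line or array 3 with both agents in GM10855, and BCL2L1 only without untreated array 1 of either line or array 2 with both agents in GM10855. With all calcitriol arrays against all others, which include the 0 h arrays, 1.41% of all probe sets passed. CFLAR rose by 0.23 there (limma adjusted p = 0.00202), BCL2L1 by 0.22 (adjusted p = 0.00769) and MCL1 by 0.18 (adjusted p = 0.00669). CFLAR has several probe sets, and their mean gave 0.15 (adjusted p = 0.169), and 0.25 for both agents against untreated (adjusted p = 0.0529). Within GM10855 the same comparison, where 1.40% of all probe sets passed, gave 1 call among the 7 Fas pathway genes, higher (limma adjusted p = 0.0166). It gave 1 call, lower, among the 9 survival proteins. PIM2, a kinase that promotes survival, fell by 0.30 (limma adjusted p = 0.0302), and it gave 0.10 in GM10861 (adjusted p = 0.845), with 0.39 for the difference between the lines (adjusted p = 0.172). The call of PIM2 was lost in GM10855 without untreated array 1, calcitriol array 1 or 2, estrogen array 2, or array 1 or 2 with both agents, at an adjusted p of up to 0.0981, and it held under 10 of 20 alternatives in all (adjusted p of up to 0.143).

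Between the untreated lines, where 24.3% of all probe sets passed (16.2% higher and 8.15% lower in GM10861), 0 of 3 measured ligands were higher and 2 lower in GM10861, CD70 by -0.43 and TNFSF8 by -0.78. The other receptors split into 6 higher and 2 lower of 19. TNFRSF21 (death receptor 6) was higher by 1.31, TNFRSF10A (a TRAIL receptor) by 1.02, TNFRSF11B (osteoprotegerin, a decoy for RANKL) by 0.81 and TNFRSF9 by 0.65. TNFRSF10B and TNFRSF10D were higher by 0.42 and 0.43, and TNFRSF14 and TNFRSF19 lower by -0.50 and -0.37. Of the adaptors and NF-kB genes 3 were higher and 3 lower of 13, TRAF5 (0.53), CHUK (0.36) and CAMLG (0.33) against TNFAIP3, an inhibitor of NF-kB (-0.66), NFKB2 (-0.31) and TRAF1 (-0.28). Of the processing genes 2 of 8 were lower, the gamma-secretase subunits NCSTN (-0.33) and APH1B (-0.28). Of the Fas pathway 2 were higher and 2 lower of 7, FAIM (1.17) and CASP8 (0.91) against CFLAR (-0.50) and TRADD (-0.38). The survival proteins had 1 higher and 4 lower of 9: the kinase PIM2 was lower by -1.61, the proapoptotic BCL2L11 (BIM) by -1.26, MCL1 by -0.53 and BCL2L1 by -0.33, and BCL2A1 was higher by 0.45. Of the syndecan and heparan sulfate genes 1 was higher and 1 lower of 8, the glypican GPC4 by 0.97 and the sulfotransferase HS2ST1 by -0.44. In the dimmer line the means of TNFRSF11B (3.96), TNFSF8 (4.42) and GPC4 (4.40) lay below the array means of the T cell marker list, 4.46 to 4.69, and the lower quartile of all probe sets was 3.97 to 4.08. The sizes of these 3 differences at so low a signal are given as log2 values only. The calls of TNFRSF10D, TRAF1, NFKB2, CAMLG, APH1B and BCL2L1 in these counts were each lost without at least 1 untreated array, that of NCSTN with only the arrays compared (adjusted p = 0.0545), and that of CFLAR with the mean of its probe sets (-0.20, adjusted p = 0.111).

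Of the 8 measured B cell markers 3 passed in calcitriol against untreated, where 0.679% of all probe sets did (median of the 8, 0.14). CD79A, CR2 and PAX5 rose by 0.85, 0.41 and 0.26. With calcitriol on top of estrogen 3 of the 8 passed, beside 0.754% of all probe sets (median 0.15). There CD79A, CR2 and PAX5 rose by 0.78, 0.43 and 0.32. The first call of PAX5 was lost without any 1 of 8 of the 12 arrays, at an adjusted p of up to 0.0816, and with only the arrays compared (adjusted p = 0.0887). It held in GM10855 when calcitriol array 3 or untreated array 1 was left out, and in GM10861 when calcitriol array 2 or untreated array 3 was. With all calcitriol arrays against all others, the lines differed in the response of 2 of the 8 B cell markers. The other arrays include the untreated ones at 0 h, so 36 h in culture is partly mixed in. Taken separately, neither calcitriol against untreated nor both agents against estrogen gave such a call among the 8 (lowest limma adjusted p = 0.333 and 0.332). For MS4A1 (CD20), all calcitriol arrays against all others gave 0.37 in GM10855 and -0.05 in GM10861, and the difference between the lines was -0.42 (limma adjusted p = 0.0136). For CD79A the values were 1.04 and 0.59, and the difference of -0.46 (adjusted p = 0.0393) lost its call without any 1 of 17 of the 24 arrays, at an adjusted p of up to 0.0955, and after each array was centred on its median (adjusted p = 0.0775). In the same comparison 4 of the 8 markers rose in GM10855, where 1.40% of all probe sets passed, and 1 in GM10861, where 0.368% did. Of the 7 plasma cell markers that are not among the 9 genes, 1 rose, CD38, an ectoenzyme that consumes NAD and a plasma cell surface antigen, by 1.0 and 0.99. The others did not pass: PRDM1, the regulator of plasma cell differentiation, gave 0.15 and 0.08, MZB1 0.15 and 0.04, IRF4 0.06 and 0.04, XBP1 0.02 and -0.01, JCHAIN -0.07 and -0.01, and SLAMF7 -0.09 and -0.08. The part of these markers in the rise of TNFRSF17 was not tested.

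The genes whose pattern was most like that of TNFRSF17 were found by the Pearson correlation of the 8 group means, each centred on its line, among 331 probe sets with a range of at least 0.5 in these means. They were SULF2 (0.992), an extracellular heparan sulfate sulfatase, CAMP (0.991), the cathelicidin peptide, TENT5C (0.990), a poly(A) polymerase abundant in plasma cells, STS (0.990), the steroid sulfatase, and TRIM31 (0.989). The 8 means share their arrays and their normalisation. These are descriptions over 8 points, and 4 of the 8 hold calcitriol. SULF2 rose by 0.77 and 0.70 in the comparisons against untreated and against estrogen, TENT5C by 0.73 and 0.67, and TRIM31 by 0.65 and 0.64, near the 0.67 and 0.68 of TNFRSF17. CAMP rose by 2.46 and 2.16 and STS by 1.89 and 1.73. Among the 9 genes the same correlation, taken without the limit on range, was 0.965 for CD27, 0.879 for SDC1 and 0.845 for TNFRSF8. It was 0.331 for CD40, 0.269 for FAS, 0.249 for TNFRSF13C, -0.521 for TNFRSF13B and -0.550 for TNFSF13B. Apart from TNFRSF17, all of the 9 had a range under 0.5, from 0.0514 for FAS to 0.311 for CD27.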

How the data were processed

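RNA of 24 samples was labelled by a whole-transcript protocol and hybridised to Affymetrix arrays, per the labels' protocols. The authors deposited log2 values of 33297 probe sets. They were made by RMA, with Affymetrix Expression Console version 1.0.1 named in the submitters' processing notes. Which arrays were normalised together is not given in the sources used here. RMA sets all arrays to one distribution, so a shift shared by most genes is removed. The array's annotation gave 19460 probe sets with 1 gene symbol, 1754 with several and 12083 with none; 19429 of the first were updated by Entrez number. A gene with several probe sets is represented by its brightest.

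limma 3.58.1 in R 4.3.3 fitted 1 mean per line and agent to 24 arrays (16 residual and 6.73 prior degrees of freedom) over the 21214 probe sets with a symbol. The moderated tests were 2-sided, with Benjamini-Hochberg adjustment within each comparison, and a gene passed at an adjusted p under 0.05. Comparisons average both lines unless a line is named. The fit was tested on simulated data. In calcitriol against untreated it recovered 40.3% of changes of 0.3 on the log2 scale and 100% of those of 0.6 and 1. A change of 0.3 was thus more often missed than found, and 9 unchanged probe sets were called. The number of arrays limits the precision. Alternatives changed the filter, probe sets, normalisation, variance model, weights and arrays. Array numbers follow accession order and only name an array.

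The 9 genes, the related lists and the marker lists were chosen with earlier results of these data known. Named genes are the 9, the genes of the related lists that passed in a comparison described, up to 2 more per list with the smallest p in calcitriol against untreated, the B and plasma cell markers, and the 5 most like TNFRSF17. The Fas pathway call within GM10855 is counted without its gene's name. Promoter windows are from RefSeq (GRCh38.p14); the search covered the 250 bases before the start.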

Additional observations from a re-analysis of the deposited data

Results flagged for a closer look

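Of the 8 measured B cell markers, 2 differed between the lines in the response to calcitriol, where 0.104% of all probe sets passed. None of the 9 receptor and ligand genes passed, which at that share says little about them. The difference, GM10861 minus GM10855, was -0.42 for MS4A1 (limma adjusted p = 0.0136, 12 arrays per line) and kept its call under all 32 alternatives. For CD79A it was -0.46 (adjusted p = 0.0393), and the call held under 13 of 32 alternatives. This comparison includes the untreated arrays at 0 h, so 36 h in culture is partly mixed in. Calcitriol against untreated and both agents against estrogen, taken separately, gave no line difference that passed among the 8 markers (lowest limma adjusted p = 0.333 and 0.332).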

How the results depend on the processing

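In calcitriol against untreated the count of 1 gene past the test among the 9 became 2 with probe sets of mean log2 signal of at least 5, with trended and robust variance and with array weights, CD27 being added each time. It became 3 when all calcitriol arrays were set against all others, a comparison chosen after seeing the data. With trended and robust variance the count of 1 also became 2 in both agents against untreated and in calcitriol against estrogen, and the other counts stayed within 1.5 times their value. Leaving out each array in turn gave 1 to 1 in all 4 comparisons of calcitriol with a group without it, 0 to 0 in both estrogen comparisons, the interaction and the difference between lines in the calcitriol response, 3 to 5 between the untreated lines, and 2 to 4 for all calcitriol arrays against all others. The rise of TNFRSF17 kept its call under all 20 alternatives of both main calcitriol comparisons, at 0.65 to 0.68 and 0.64 to 0.72 without 1 array. Of 4536 re-estimates of the 9 genes, 4475 kept their side of the threshold, 35 lost and 26 gained a call, and 264 uncalled values changed sign. No called value changed sign. No paired analysis was possible because the labels give no replicate numbers that tie arrays across groups. SDC1 and TNFRSF8 stayed without a call under all 20 alternatives of both main calcitriol comparisons. With all calcitriol arrays against all others, SDC1 (0.19, called) kept its side of the threshold under 23 of 32 alternatives and TNFRSF8 (0.14, not called) under 25 of 32.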
